A study of Homo sapiens with 4 samples.

Results

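The genes described here are 8 genes of fatty acid uptake and of the scavenger receptors, CD36, OLR1, SCARB1, MSR1, FABP1, SLC27A2, SLC27A4 and SLC27A5. They were measured in Huh7 cells, a human hepatocellular carcinoma line, that had received either an siRNA targeting NF90 (siNF90) or siNTC, the control siRNA of the labels. An siRNA is a short duplex that leads to the breakdown of matching mRNA, and NF90 is an RNA-binding protein. The comparison asks how mRNA levels differ once NF90 is depleted. Total RNA of 2 siNF90 and 2 siNTC samples was hybridised to 1 array each. Both groups are the same parental line, and nothing in the labels says whether replicates were separate cultures, so SDs and p-values cover no more than array-to-array spread, possibly technical. The depletion of NF90 itself was not checked, as its gene was left out of the work described here. All 8 genes were found by symbol in the platform's probe table and all 8 were among the 19140 genes with a value. Values are log2 RMA values. A gene value is the mean of the gene's probe sets whose mean over the 4 arrays reached the 40th percentile of all probe sets, a log2 value of 2.13, and a difference is always siNF90 minus siNTC. The 8 genes had 120 probe sets, of which 81 reached that level and 39 were dim. The genes were chosen by name with their gene values in siNF90 and siNTC known, and probe sets were selected on their mean over all 4 arrays, so the differences are given as a description, and no test of them is offered.

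Hepatocytes take up long-chain fatty acids through membrane proteins that include CD36, the fatty acid translocase, and the fatty acid transport proteins of the SLC27 family, which couple uptake to the formation of acyl-CoA. Inside the cell FABP1, the liver fatty acid binding protein, carries them to mitochondria, peroxisomes and the endoplasmic reticulum. CD36 is also a scavenger receptor, one of the proteins that bind modified lipoproteins. OLR1 (also called LOX-1) binds oxidised low-density lipoprotein and is best known from endothelial cells, MSR1 is the class A receptor of macrophages, and SCARB1 takes up cholesteryl esters from high-density lipoprotein in liver and steroid-producing tissue.

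CD36 and OLR1 were the members with the lowest differences, 3.37-fold and 3.98-fold lower in siNF90 than in siNTC cells. These values include, for each gene, 2 probe sets that were kept only through their siNTC values and so had to differ. Without the filter on dim probe sets CD36 and OLR1 were 1.94-fold and 2.40-fold lower. FABP1, the most abundant fatty acid carrier of hepatocytes, was lower on every probe set, and its gene value by a smaller amount. The promoters of 5 of the 8 genes were found by symbol in the RefSeq promoter table (GRCh38.p14), which holds windows from 250 bases before to 50 bases after an annotated start. Those of CD36, FABP1 and SLC27A4 are shown because CD36 and FABP1 were among the genes lower in siNF90 cells and SLC27A4 was the member that was higher. RefSeq gives CD36 6 windows, and the most upstream and the most downstream are printed. The lines are, in order, chr7:80601957-80602256 (+), chr7:80646196-80646495 (+), chr2:88128013-88128312 (-) and chr9:128340277-128340576 (+), each read 5′ to 3′ on the strand of the gene. Capitals mark matches on either strand to TATAAA (the TATA box), AGGTCA (the hexamer bound by many nuclear receptors), GTTAAT (a hexamer of HNF1 sites) and GGGCGG (the GC box). No marked matches overlap.
CD36 upstream start: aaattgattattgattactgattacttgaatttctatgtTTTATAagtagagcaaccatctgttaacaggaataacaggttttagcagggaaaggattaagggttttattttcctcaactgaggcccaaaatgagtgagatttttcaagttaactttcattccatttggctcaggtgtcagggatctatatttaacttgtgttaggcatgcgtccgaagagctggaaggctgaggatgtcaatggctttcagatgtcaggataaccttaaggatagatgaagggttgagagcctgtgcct
CD36 downstream start: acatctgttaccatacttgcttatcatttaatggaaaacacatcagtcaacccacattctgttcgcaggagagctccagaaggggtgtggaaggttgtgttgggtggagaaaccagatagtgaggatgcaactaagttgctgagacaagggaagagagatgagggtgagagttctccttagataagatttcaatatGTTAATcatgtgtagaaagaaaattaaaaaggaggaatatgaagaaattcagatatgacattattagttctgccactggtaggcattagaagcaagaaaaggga
FABP1: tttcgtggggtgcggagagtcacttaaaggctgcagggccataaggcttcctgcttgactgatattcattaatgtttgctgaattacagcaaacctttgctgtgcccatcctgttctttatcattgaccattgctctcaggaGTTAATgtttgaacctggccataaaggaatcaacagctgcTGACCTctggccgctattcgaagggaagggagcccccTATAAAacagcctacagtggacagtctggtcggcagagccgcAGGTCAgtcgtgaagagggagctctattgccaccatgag
SLC27A4: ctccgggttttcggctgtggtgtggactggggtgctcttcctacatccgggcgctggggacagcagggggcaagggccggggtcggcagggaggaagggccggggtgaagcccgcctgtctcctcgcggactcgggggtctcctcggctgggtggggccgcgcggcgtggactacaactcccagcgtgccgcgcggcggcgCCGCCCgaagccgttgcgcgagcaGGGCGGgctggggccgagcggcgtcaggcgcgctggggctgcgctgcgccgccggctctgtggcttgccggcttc

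The FABP1 window held a TATAAA match 31 bases before the start, a GTTAAT match 108 bases before it, and AGGTCA matches 68 bases before it, on the opposite strand, and 11 bases after it. Of the 35116 windows of the table, 11.5% held TATAAA, 6.88% GTTAAT, 13.8% AGGTCA and 45% GGGCGG. The CD36 windows had GC contents between 35% and 43.7%, below the median of 58.7% over all windows, and all 6 lacked GGGCGG. They are not 6 separate stretches, since windows 3 and 4, counted from upstream, share bases, as do windows 5 and 6. The SLC27A4 window had a GC content of 75.7% with 2 GGGCGG matches. SLC27A2 had 65% with 1 such match and SLC27A5 had 62.7% with none of the 4 motifs. These matches are letters in a window and describe no binding.

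CD36 was lower in siNF90 cells. Its gene value was 2.91 and 3.14 on the siNF90 arrays, against 4.64 and 4.91 on the siNTC arrays. The groups did not overlap, and arrays of the same group differed by only 0.23 in siNF90 and 0.27 in siNTC. The means were 3.03 ± 0.16 in siNF90 and 4.78 ± 0.19 in siNTC cells (SD, n = 2 each), a difference of -1.75 (SE 0.21), which is 3.37-fold lower. The median of all probe sets on an array, dim ones included, lay between 2.72 and 2.79. The siNF90 value of CD36 was not far above it, although it is a mean of kept probe sets only. CD36 ranked 30 from the lowest difference among the 19140 genes, with 2 probe sets kept only through siNTC included in its value.

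The probe sets of CD36 did not all differ alike. Of its 25 probe sets 10 were kept. Of these, 8 were lower in siNF90 without overlap of the groups, beside 20.3% of all kept probe sets. The differences of these 8 ranged from -3.34 to -1.53. The probe set with the largest of these differences had 0.99 and 1.87 on the siNF90 arrays, against 5.05 and 4.47 on the siNTC arrays. That probe set and 1 other of the 8 lay under the dim level on both siNF90 arrays and were kept only through their siNTC values, so they had to differ. Apart from these, 6 of 8 kept probe sets were lower without overlap, with differences down to -2.91. The brightest probe set of the gene did not follow them. It had 6.34 and 5.82 on the siNF90 arrays, against 6.69 and 5.72 on the siNTC arrays, a difference of -0.13 with overlapping groups. The dimmest kept probe set went the other way, with 4.44 and 2.56 in siNF90 against 1.71 and 2.93 in siNTC, and its groups overlapped as well. The 15 dim CD36 probe sets had a median difference of -0.35 and ranged from -2.997 to 0.85. The first of these lay just under the level needed, at a mean of 2.10, and had 0.83 and 0.37 on the siNF90 arrays, against 2.56 and 4.63 on the siNTC arrays. Without the filter on dim probe sets the CD36 difference was -0.96, or 1.94-fold lower, and with the median in place of the mean of kept probe sets it was -2.13.

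OLR1 was the member with the lowest difference. Its gene value was 3.05 and 2.70 on the siNF90 arrays, against 4.85 and 4.88 on the siNTC arrays. The groups were separated by 1.80, and the siNF90 arrays differed by 0.35 from each other where the siNTC arrays differed by 0.029. The means were 2.87 ± 0.25 in siNF90 and 4.87 ± 0.020 in siNTC cells (SD, n = 2 each), a difference of -1.99 (SE 0.20), which is 3.98-fold lower. On the second siNF90 array the value of 2.70 was just under 2.72, the median of all probe sets on that array, dim ones included. OLR1 ranked 20 from the lowest of the 19140 genes, with 2 probe sets kept only through siNTC included in its value. OLR1 had 14 probe sets and 9 were kept. These 9 were lower in siNF90 without overlap, beside 20.3% of all kept probe sets, and the differences ranged from -3.70 to -1.04. The filter is not independent of the difference, since 2 of the 9 lay under the dim level on both siNF90 arrays and were kept only through their siNTC values. The differences of the 7 others ranged from -2.44 to -1.04. The brightest of them had 5.002 and 4.20 on the siNF90 arrays, against 5.52 and 5.77 on the siNTC arrays. The probe set with the largest difference, 1 of the 2 kept through siNTC, had 1.18 and 1.08 in siNF90, against 5.79 and 3.87 in siNTC. The 5 dim probe sets had differences between -0.58 and 0.52, with a median of 0.30 and 2 higher in siNF90 without overlap, and without the dim filter the difference of the gene was -1.26, or 2.40-fold lower.

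**Figure D1:**
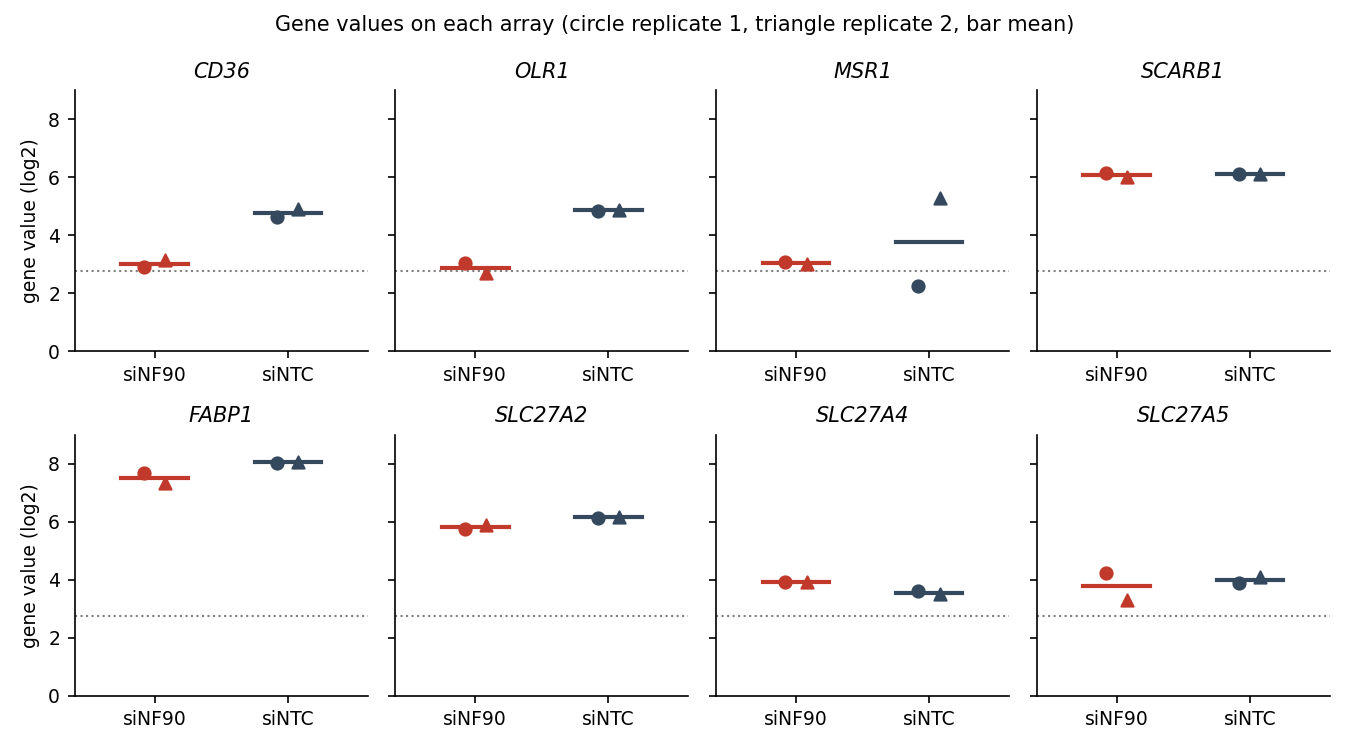
Gene values (log2, vertical axis) of the 8 genes on the 2 siNF90 arrays (red) and the 2 siNTC arrays (dark blue), with circles for replicate 1, triangles for replicate 2, bars for the group means and a dotted line at 2.765, the mean of the 4 array medians over all probe sets. CD36 and OLR1 sat at 2.70 to 3.14 on the siNF90 arrays and at 4.64 to 4.91 on the siNTC arrays, MSR1 was split between its siNTC arrays, and SCARB1 had nearly the same value on all 4.

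MSR1, the macrophage class A scavenger receptor, had a difference smaller than the spread between its siNTC arrays. Only 2 of its 12 probe sets were kept. Its gene value was 3.07 and 3.004 on the siNF90 arrays, against 2.26 and 5.28 on the siNTC arrays. The siNF90 arrays lay between the siNTC arrays, which differed by 3.02 from each other. The difference of -0.73 had an SE of 0.997. It was 0.77 without the second siNTC array, -2.24 without the first, and 0.10 without the dim filter. On 1 of the kept probe sets the second siNTC array had 5.91 and the first 1.62, with 2.53 and 3.004 on the siNF90 arrays. The 10 dim probe sets lay at means from 0.83 to 2.13. The brightest of those fell just short of the level needed and had 3.61 and 0.998 in siNF90, against 1.62 and 2.28 in siNTC.

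SCARB1, the high-density lipoprotein receptor and a relative of CD36, had 6.16 and 6.01 on the siNF90 arrays, against 6.11 and 6.12 on the siNTC arrays. The siNTC arrays lay within the range of the siNF90 arrays. The means were 6.09 ± 0.11 in siNF90 and 6.11 ± 0.0048 in siNTC cells (SD, n = 2 each), a difference of -0.028 with a 95% interval from -0.49 to 0.43. Of its 19 kept probe sets 9 were lower and 10 higher in siNF90, with a median difference of 0.016. The brightest had 9.92 and 9.68 on the siNF90 arrays, against 9.84 and 9.70 on the siNTC arrays. The extremes, -1.97 and 1.93, were both among probe sets with a mean under 4. The seventh brightest, with a mean of 7.70, was lower without overlap, at 7.44 and 7.47 in siNF90 against 7.96 and 7.93 in siNTC, while the sixth, with a mean of 8.07, was higher without overlap, at 8.19 and 8.36 in siNF90 against 7.73 and 7.996 in siNTC. The sign of the SCARB1 difference changed under 4 of the 11 alternatives that gave it a value, within a range of -0.10 to 0.080.

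FABP1 was lower in siNF90 cells on each of its 8 probe sets, all of them kept. Its gene value was 7.69 and 7.34 on the siNF90 arrays, against 8.03 and 8.07 on the siNTC arrays. The groups did not overlap, and the gap of 0.35 between the nearest arrays was about as large as the 0.34 between the siNF90 arrays. The means were 7.52 ± 0.24 in siNF90 and 8.05 ± 0.029 in siNTC cells (SD, n = 2 each), a difference of -0.54 (SE 0.20), which is 1.45-fold lower. The 3 brightest probe sets had means of 10.97, 10.81 and 10.48 and differences of -0.35, -0.35 and -0.24. On the brightest the siNF90 arrays had 10.81 and 10.78, against 11.18 and 11.11 on the siNTC arrays. The dimmest, with a mean of 3.18, had the largest difference, -1.19. In 7 of the 8 the siNF90 arrays lay below the siNTC arrays without overlap, beside 20.3% of all kept probe sets. The difference ranged from -0.71 to -0.37 when each array was left out.

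**Figure D2:**
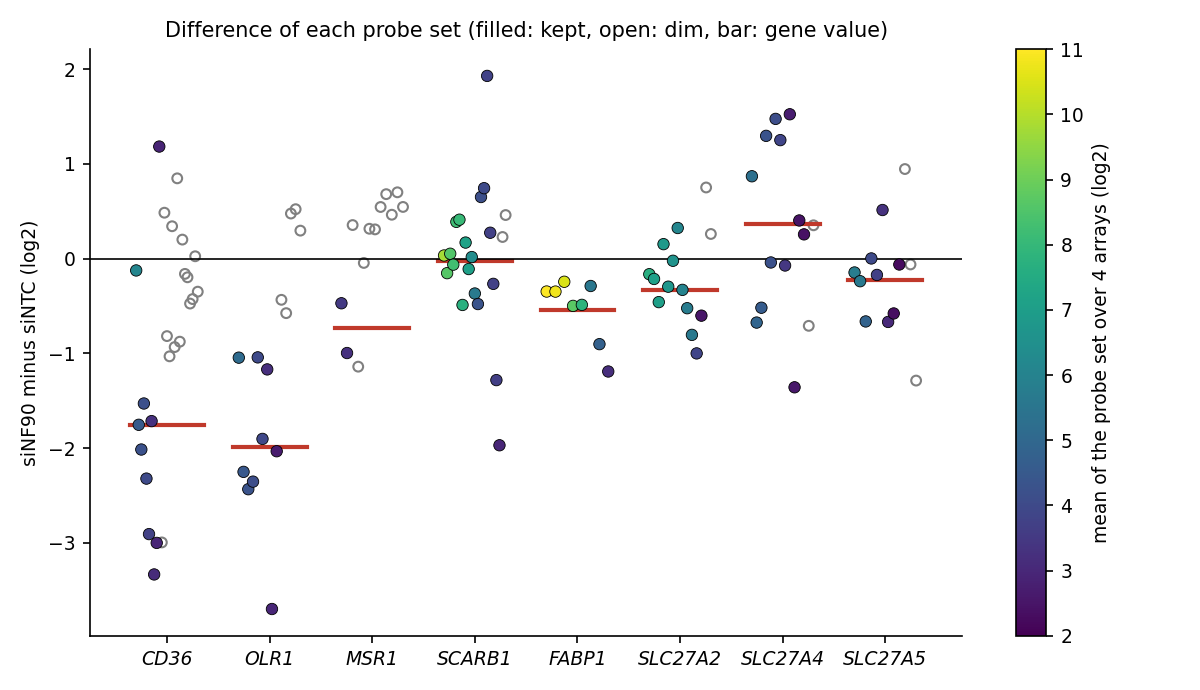
Difference siNF90 minus siNTC (log2, vertical axis) of each of the 120 probe sets of the 8 genes, ordered within a gene from bright to dim, with kept probe sets filled and coloured by their mean over the 4 arrays, dim ones open, and red bars at the gene values. In OLR1 and FABP1 all kept probe sets lay below 0, in CD36 9 of 10 did, and in SCARB1 they lay on both sides of 0.

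The transport proteins of the SLC27 family differed less and not in the same direction. SLC27A2 (FATP2), a very long-chain acyl-CoA synthetase of liver and kidney, had 5.75 and 5.89 on the siNF90 arrays, against 6.13 and 6.17 on the siNTC arrays. The groups did not overlap, and the nearest arrays were 0.24 apart. The means were 5.82 ± 0.098 in siNF90 and 6.15 ± 0.029 in siNTC cells (SD, n = 2 each), a difference of -0.33 (SE 0.18). Of its 12 kept probe sets 10 were lower. In only 3 of them did the groups not overlap, beside 20.3% of all kept probe sets lower without overlap. With the median of probe sets the difference shrank to -0.094. SLC27A4 (FATP4), which is widely expressed and known from intestine and skin, was the member with a positive difference. Its gene value was 3.92 and 3.93 on the siNF90 arrays, against 3.62 and 3.50 on the siNTC arrays. The means were 3.93 ± 0.011 in siNF90 and 3.56 ± 0.082 in siNTC cells (SD, n = 2 each), a difference of 0.37 (SE 0.17) without overlap. Its probe sets were divided. Of the 12 kept, 7 were higher and 5 lower in siNF90, and the differences ran from -1.36 to 1.52. Without overlap 5 were higher and 1 lower, beside 18% and 20.3% of all kept probe sets. The brightest had 5.32 and 6.15 on the siNF90 arrays, against 4.89 and 4.84 on the siNTC arrays. The next brightest had 4.84 and 4.31 in siNF90, against 4.82 and 5.68 in siNTC.

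SLC27A5 (FATP5), the liver enzyme that also links bile acids to coenzyme A, had 4.24 and 3.30 on the siNF90 arrays, against 3.89 and 4.09 on the siNTC arrays. The siNF90 arrays lay on both sides of the siNTC arrays and differed by 0.94 from each other. The means were 3.77 ± 0.67 in siNF90 and 3.99 ± 0.14 in siNTC cells (SD, n = 2 each), a difference of -0.22 with a 95% interval from -1.16 to 0.71. It was 0.25 without the second siNF90 array and -0.69 without the first. On 1 kept probe set the first siNF90 array had 5.96 and the second 1.25, against 3.999 and 3.56 on the siNTC arrays. The 2 kept probe sets of the 8 genes nearest to the dim level were both of SLC27A5, with means of 2.28 and 2.34 and differences of -0.062 and -0.58.

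**Figure D3:**
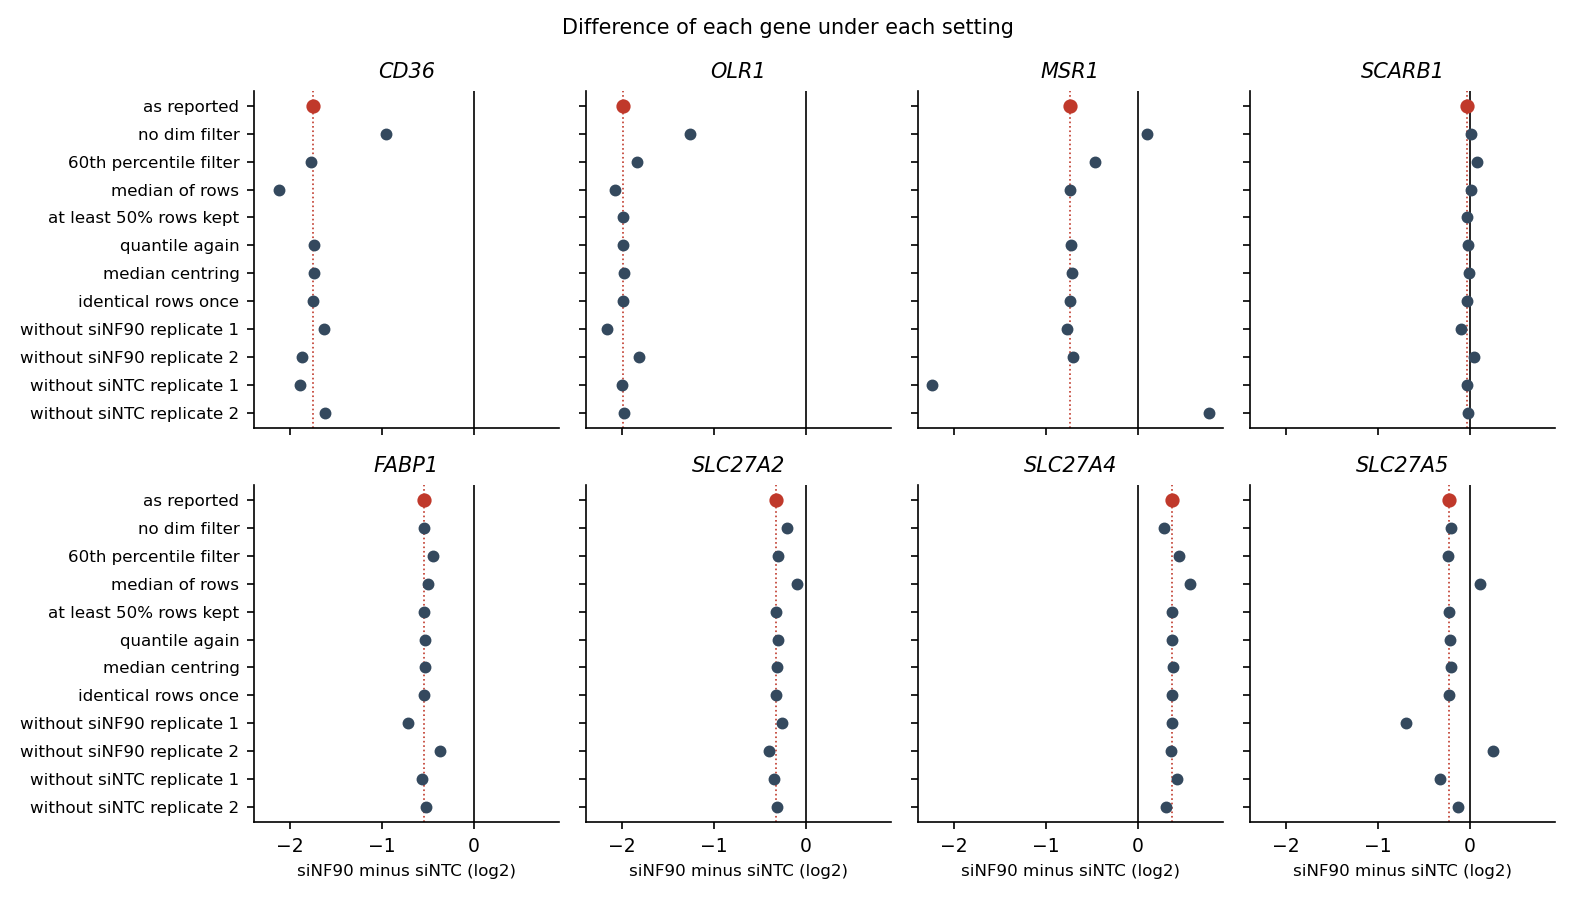
Difference siNF90 minus siNTC (log2, horizontal axis) of each of the 8 genes as reported (red) and under each alternative setting that gave the gene a value (dark blue), with a black line at 0. CD36 stayed between -2.13 and -0.96 and OLR1 between -2.17 and -1.26, whereas MSR1 ranged from -2.24 to 0.77 and SLC27A5 from -0.69 to 0.25.

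In all, 7 of the 8 genes had negative differences, where 52.5% of all 19140 genes did. The median difference was -0.43 over the 8 genes and -0.018 over all genes tested. Without CD36 and OLR1 the median of the other 6 was -0.28. The groups did not overlap in 5 of the 8, with 4 lower in siNF90, against 22% of all genes, and 1 higher, against 19.2% of all genes. Among the 81 kept probe sets 32 were lower without overlap, against 20.3% of all 171120 kept probe sets, and 9 were higher without overlap, against 18%. Of the 32, 17 belonged to CD36 and OLR1, among them 2 of each gene that were kept only through their siNTC values and had to be lower. Of the 39 dim probe sets 8 were lower and 11 higher without overlap, with a median difference of 0.23. In the limma fit over all genes with Benjamini-Hochberg adjustment, 0 of the 8 passed an adjusted p of 0.05, as did 0% of all genes. At an unadjusted p under 0.05 there were 3 of the 8, CD36, OLR1 and FABP1, against 8.79% of all genes. With limma's trend and robust prior 2 of the 8 passed, CD36 and OLR1, against 0.251% of all genes. Since these genes were chosen with this contrast known, nothing is read from these counts. Of single probe sets limma called 0% of the 171120, none of the members' among them, and 12629 had an unadjusted p under 0.05. With the trend and robust prior it called 0.00643%, again none of the members'.

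The label of the cells was set against marker genes. The 12 hepatocyte markers, secreted liver proteins such as albumin (ALB) and alpha-fetoprotein (AFP), averaged 9.35 and 9.31 on the siNF90 arrays and 9.53 and 9.49 on the siNTC arrays. Their log2 values summed to 112.2 and 111.7 in siNF90, against 114.3 and 113.8 in siNTC. Sums here and for the lists below are of log2 gene values, so they restate the averages and give no total amount of RNA. Of the 12, 8 were lower in siNF90 without overlap and 1 higher, beside the 22% and 19.2% of all genes, with a median difference of -0.20. The same shares of all genes belong beside the counts of the other markers below. ALB had 10.82 and 10.57 on the siNF90 arrays, against 11.11 and 11.07 on the siNTC arrays. The differences of FABP1 and SLC27A2 stood beside a lower level of several hepatocyte markers, whose part in them was not tested. The 9 macrophage and blood cell markers with a value summed to 36.1 and 34.7 in siNF90, against 33.7 and 33.5 in siNTC, with 0 lower and 3 higher without overlap. Apart from lysozyme (LYZ), at 9.15 and 9.08 in siNF90 against 8.98 and 8.92 in siNTC, the highest value of any of them was 4.05, for CSF1R on the second siNTC array. The 7 endothelial markers summed to 21.8 and 21.3 in siNF90, against 20.1 and 20.9 in siNTC, with 1 lower and 2 higher without overlap. The 8 stellate cell and fibroblast markers summed to 27.6 and 27.7 in siNF90, against 28.3 and 29.4 in siNTC, with 2 lower and 2 higher without overlap. The lower ones were DCN, a matrix proteoglycan with 2 kept probe sets, at 2.84 and 1.79 in siNF90 against 3.28 and 3.76 in siNTC, and ACTA2, smooth muscle actin, at 4.88 and 4.67 in siNF90 against 5.44 and 5.16 in siNTC. The higher ones were PDGFRB and COL1A1. PDGFRB had 3.49 and 3.95 in siNF90 against 3.31 and 2.999 in siNTC. COL1A1 had 3.69 and 3.71 in siNF90 against 3.56 and 3.66 in siNTC. The 3 adipocyte markers with a value summed to 8.30 and 9.78 in siNF90, against 9.84 and 8.52 in siNTC, with 0 lower and 0 higher without overlap. The part of these lists in the CD36 and OLR1 differences was not tested. All samples were bulk RNA of the Huh7 line. In them fewer cells expressing a gene and less of its RNA per cell cannot be told apart.

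Other genes of lipid uptake came from 9 lists with 175 different genes, of which 156 had a value. In the limma fit with Benjamini-Hochberg adjustment 0 of the 156 passed, and 0 passed with the trend and robust prior. At an unadjusted p under 0.05 there were 13, beside the 8.79% of all genes. Without overlap of the groups 38 were lower in siNF90 and 28 higher, beside the 22% and 19.2% of all genes, and the median difference was -0.049. The same shares of all genes belong beside the counts of the single lists below. The remaining fatty acid transport proteins and the acyl-CoA synthetases, 16 genes, had a median of -0.062, with 5 lower and 2 higher without overlap. The lowest p in that list belonged to ACSM5, a medium-chain acyl-CoA synthetase, with 3.07 and 2.94 in siNF90 against 3.30 and 3.75 in siNTC (difference -0.52, SE 0.23, adjusted p = 0.605 in limma). ACSM3 of the same family had 6.88 and 6.82 in siNF90 against 7.13 and 7.24 in siNTC (adjusted p = 0.640 in limma). Among the other carriers of fatty acids and lipids, 13 genes with a median of -0.10, the caveolar protein CAV2 had a difference of -0.60 (SE 0.26) and FABP6, the ileal bile acid binding protein, -0.37 (SE 0.21).

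The other scavenger and lectin receptors had differences on both sides of 0. Of 24 genes 14 had positive differences, 4 were lower and 4 higher without overlap, and the median was 0.052. CLEC1B, a C-type lectin receptor from the same gene family as OLR1, had 4.24 and 4.23 on the siNF90 arrays, against 3.59 and 3.30 on the siNTC arrays, from 2 probe sets (adjusted p = 0.514 in limma). MEGF11 had a difference of 0.48 (SE 0.20). The lipoprotein receptors and surface lipases, 15 genes, had a median of -0.17, with 4 lower and 2 higher without overlap. LRP8, an apolipoprotein E receptor, had 4.97 and 4.77 in siNF90, against 5.50 and 5.62 in siNTC, without overlap (difference -0.69, SE 0.19, adjusted p = 0.514 in limma). LRP5, a WNT co-receptor of the same family, had a difference of 0.46 (SE 0.18).

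Among 16 partners and modifiers of CD36 and SCARB1 the median was -0.024, with 3 lower and 4 higher without overlap. FYN, a SRC family kinase that acts downstream of CD36, was at 5.41 and 5.56 on the siNF90 arrays, against 4.49 and 4.43 on the siNTC arrays. Its groups were far apart relative to the spread within them, the difference was 1.03 (SE 0.18), and its adjusted p in limma was 0.514. CD9, a tetraspanin found with CD36 in membranes, had a difference of 0.51 (SE 0.18). The 21 transcription factors reported to control CD36 or FABP1 had a median of 0.0024, with 5 lower and 4 higher without overlap. The coactivator PPARGC1B had 2.97 and 2.89 in siNF90, against 3.53 and 3.85 in siNTC (difference -0.76, SE 0.20, adjusted p = 0.514 in limma). The hepatic factor FOXA1 had -0.43 (SE 0.22). PPARG, the receptor best known to induce CD36, had 5.22 and 4.67 in siNF90 against 4.81 and 4.92 in siNTC, and its siNF90 arrays lay on both sides of the siNTC arrays. PPARA, its relative in liver, had 5.62 and 5.52 in siNF90 against 5.65 and 5.64 in siNTC, a difference of -0.074 (SE 0.17).

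PPAR target genes had a median of -0.20 over 21 genes, with 6 lower and 3 higher without overlap. PLIN2, the main coat protein of lipid droplets in hepatocytes, had 6.26 and 6.23 on the siNF90 arrays, against 6.88 and 7.06 on the siNTC arrays, which is a difference of -0.72 (SE 0.18, adjusted p = 0.514 in limma). ACADL, a long-chain acyl-CoA dehydrogenase, had a low level of 2.97 and 2.98 in siNF90 and of 2.23 and 1.83 in siNTC. The 21 other lipid droplet proteins had a median of -0.048, with 2 lower and 5 higher without overlap. PNPLA2, the triglyceride lipase of droplets, had a difference of 0.53 (SE 0.24), and PLIN4, a perilipin at low level here, 0.82 (SE 0.19). The 9 enzymes of bile acid conjugation and side chains, which act beside SLC27A5, had a median of -0.24. Of them 6 were lower and 2 higher without overlap, beside 22% and 19.2% of all genes. AKR1D1, the steroid 5-beta-reductase, had 2.82 and 3.27 in siNF90, against 3.98 and 4.17 in siNTC. AMACR, a racemase of branched-chain acyl-CoA and bile acid intermediates, had 5.46 and 5.26 in siNF90, against 6.25 and 6.05 in siNTC, a difference of -0.79 (SE 0.19), and both genes had an adjusted p of 0.514 in limma.

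**Figure D4:**
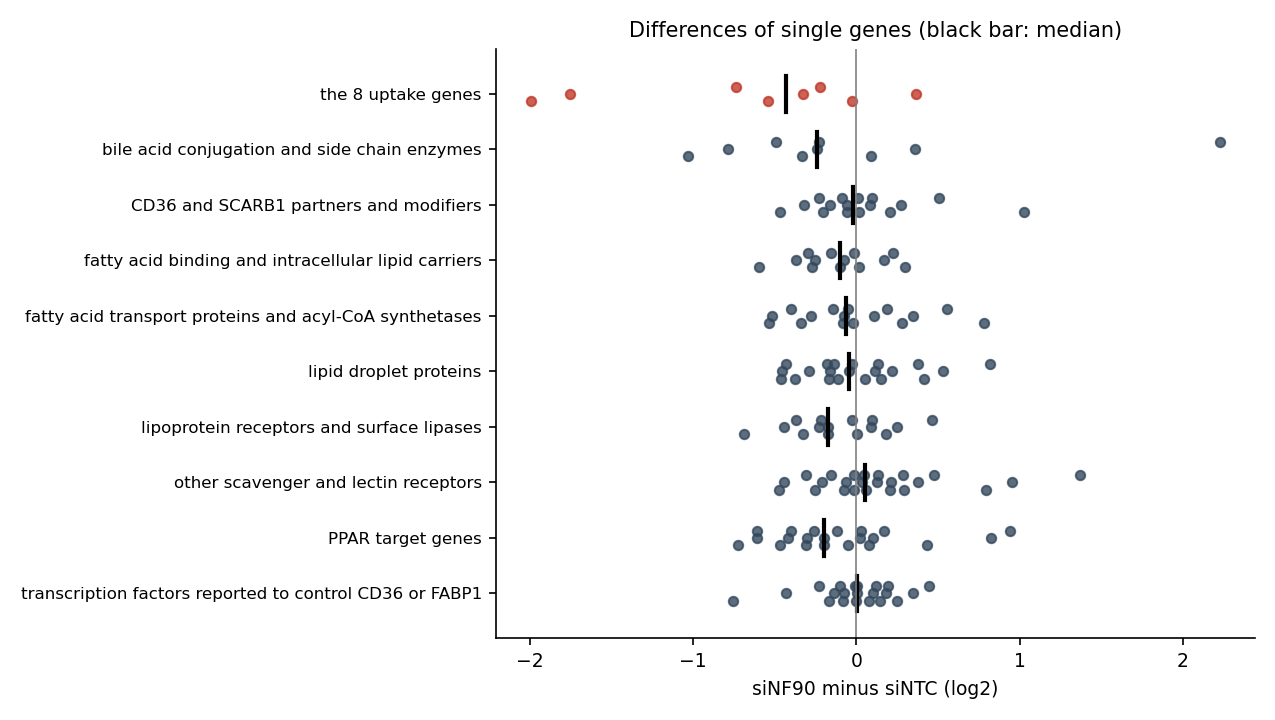
Difference siNF90 minus siNTC (log2, horizontal axis) of the 8 genes (red) and of each gene with a value in the 9 other lists (dark blue), with a black bar at each median. The points of CD36 and OLR1, at -1.75 and -1.99, lay to the left of every gene of the 9 lists, whose lowest difference was -1.03 for AKR1D1. The highest difference in the lists was 2.23 for CYP7B1, from 1 kept probe set, and was larger in size than either. The 8 genes and the lists were chosen with results of these data known, so nothing is read from these positions.

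The genes most like CD36 and OLR1 over the 4 arrays were found by the distance between gene values, each centred on its own mean, among 14434 genes with at least 3 kept probe sets. Nearest to CD36 were ACPP, a prostatic acid phosphatase, at a distance of 0.27, the zinc finger gene ZNF563 at 0.30 and the terminal complement component C6 at 0.43. ZNF563 had 2.43 and 2.69 on the siNF90 arrays, against 3.85 and 4.17 on the siNTC arrays. Nearest to OLR1 were ODAM at 0.10, the terminal complement component C7 at 0.19 and SLCO1B3, a hepatic uptake transporter, at 0.30. ODAM had 6.55 and 6.17 on the siNF90 arrays, against 8.45 and 8.43 on the siNTC arrays, and so had nearly the same steps between arrays as OLR1. With 4 arrays in 2 groups, likeness of this kind is mostly a like difference between the groups.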

How the data were processed

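Total RNA of Huh7 cells was column-purified, amplified and labelled as single-stranded cDNA, per the labels' protocols. The deposited log2 values were made by the authors by RMA-sketch analysis in Affymetrix Expression Console, per the labels and the submitters' processing notes. The log base was taken from the method and the range of the values. Not given in the sources used here are the program's version and the genome build. Each of the 352859 rows is a probe set. The platform's probe table gave 257971 rows 1 symbol, 17460 several and 77428 none, and only those with 1 were used. Its symbols can be old.

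Rows under the 40th percentile were left out as dim and the rest averaged per gene, which left 171120 rows in 19140 genes. limma 3.58.1 (R 4.3.3; lmFit and eBayes, no covariate, two-sided, Benjamini-Hochberg over all genes, threshold 0.05) compared siNF90 with siNTC, and its code was tested on simulated data. SEs and 95% intervals come from this fit. The number of arrays, 2 per group, limits the precision. The members and lists were chosen with earlier results of these data known. Named beyond the 8 genes were, per list, the genes past the threshold or, where fewer than 2 passed, the 2 with the smallest p, and the 3 genes most like CD36 and OLR1. PPARG, PPARA, CYP7B1 and the markers ALB, LYZ, CSF1R, DCN, ACTA2, PDGFRB and COL1A1 were named after their values were seen. Alternatives were other dim filters, the median of rows, at least 50% of rows kept, identical rows counted once, quantile normalization, median centring, the replicate number as a block, a prior with trend and robust estimation, and each array left out in turn.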

Additional observations from a re-analysis of the deposited data

How the results depend on the processing

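The number of genes called by limma was 0 as reported, 4 without the dim filter (2 higher and 2 lower in siNF90) and 48 with the trend and robust prior (22 higher and 26 lower). It was 0 under the other alternatives, 0 without any 1 of the arrays, and 0 with the replicate number as a block, where 1540 genes had an unadjusted p under 0.05 against 1683 without it. For single probe sets it was 0 as reported, 11 with the trend and robust prior, 0 without any 1 of the arrays, and 0 with the block. Same-numbered arrays did not deviate together (correlation of deviations -0.0118 across genes), so the numbers were not taken as pairs. The CD36 difference was -0.96 without the dim filter and -2.13 with the median of rows, and ranged from -1.89 to -1.62 with single arrays left out. The OLR1 difference was -1.26 without the dim filter and ranged from -2.17 to -1.82 with single arrays left out. No alternative changed the sign for CD36, OLR1, FABP1, SLC27A2 or SLC27A4, while the sign changed under 4 of 11 for SCARB1, 2 of 10 for MSR1 and 2 of 11 for SLC27A5. With at least 50% of rows required, CD36 and MSR1 had no value. With 1 array left in a group, that array was assumed to vary like the others. The low level of several kept probe sets in siNF90 cells limits how far CD36 and OLR1 could be followed downwards.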
